A study of Mus musculus with 2 samples.

Results

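The nuclei described here are fibroblast nuclei of mouse brown adipose tissue, the heat-producing fat depot, that carry Smoc2, Hmcn2 and related transcripts and few transcripts of the tissue's other fibroblast set, which is marked by Dpp4 and Pi16. They are called interstitial nuclei below, after the working name of the set, and their position in the tissue was not measured. A barcode (the tag of a droplet that held a nucleus) was included when at most 10% of its UMIs (unique molecular identifiers, which count captured RNA molecules) were mitochondrial and when Ppara and Cidea together made up less than 0.3% of its UMIs. It also had to hold at least 3 of 9 marker genes, namely Hmcn2, Smoc2, Inmt, Apod, Ggt5, Gdf10, Bmper, Col15a1 and Abca8a. More of these had to be detected than of 9 opposed genes, Dpp4, Pi16, Sema3e, Opcml, Smpd3, Sema3c, Adgrd1, Creb5 and Fndc1, and at most 1 of Flt1, Cyyr1, F13a1, Mrc1, Ttn and Abcc9 could be present. The rule held for 1597 of 29175 barcodes, 938 of 16145 in the library labelled Flox and 659 of 13030 in the library labelled KO.

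The tissue came from mice of 4 weeks, and each genotype was profiled as 1 library of single nuclei with droplet 3' RNA sequencing. Per the design text the KO mice are Nfe2l1(f)-KO. Nfe2l1 encodes a transcription factor known to drive proteasome genes, and Flox is the genotype set against it. The Cre driver, the removed stretch of Nfe2l1, the sex of the mice and any pooling of animals are not stated in the sources used here. With 1 library per genotype no difference below has a replicate check, so no test between genotypes was made. Intervals are given at 95%, and they hold counting error alone, without the spread between nuclei or mice.

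Flox and KO below name the libraries as labelled, because Nfe2l1 ran against the labels in adipocyte nuclei (at least 0.3% of UMIs from Ppara and Cidea). There it stood at 131.6 CPM (UMIs of the gene per 1000000 UMIs) in Flox and at 310.1 CPM in KO. In the same adipocyte nuclei the proteasome gene list used below summed to 2229 CPM in Flox and 1642 CPM in KO. Whether the labels hold was not tested. Levels are compared for the same gene across nuclei, not between genes. In interstitial nuclei Nfe2l1 stood at 84.8 CPM in Flox and at 81.4 CPM in KO, a ratio of 0.961 (0.752 to 1.22), so a difference in its transcript was not detectable at this depth. A 3' count outside a deleted stretch would not show the deletion. Interstitial nuclei summed to 1981673 UMIs in Flox and 1436513 in KO, with a median of 1691.5 and 1827 UMIs per nucleus and of 1141 and 1205 detected genes. The median mitochondrial share was 0.407% in Flox and 1.23% in KO, and its part in the results below was not tested. Of the barcode sequences, 65 occurred in both libraries, and 0 of these were interstitial nuclei in both. A count of 0 in all interstitial nuclei allows up to 1.51 CPM in Flox and 2.09 CPM in KO.

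Adipose tissue holds fibroblasts of at least a pair of kinds that share Pdgfra and Dcn. Those with Dpp4 and Pi16 are known from fibrous sheets around the tissue and its vessels and can give rise to adipocytes, while those that lack them lie among the adipocytes and vessels. Fibroblasts lay down the matrix of collagens, microfibrils and proteoglycans, and they send growth factors, WNT modulators and BMP modulators to adipocytes and vessels. Fibroblasts with high Pparg, the main regulator of fat cell formation, are regarded as committed preadipocytes.

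The fibroblast label was borne out by the markers. Pdgfra, the receptor for platelet-derived growth factor that marks most fibroblasts, stood at 612 CPM in Flox and at 639 CPM in KO. Dcn, which encodes the collagen-binding proteoglycan decorin, stood at 3910 CPM in Flox and at 4399 CPM in KO. All 16 fibroblast markers were counted, with a summed level of 19488 CPM in Flox and 23403 in KO against 2343 and 2796 in adipocyte nuclei. For comparison, 788 Flox and 640 KO nuclei met the same rule with the 2 gene sets swapped and are called Dpp4/Pi16 nuclei. They had 20941 and 24258 CPM of the same fibroblast markers.

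The 9 marker genes chose these nuclei, so their levels are a description and support nothing further. Hmcn2, which encodes the large extracellular protein hemicentin 2, stood at 645 CPM (611 to 682) in Flox and 877 (829 to 927) in KO. In Dpp4/Pi16 nuclei Hmcn2 stood at 95.1 and 124 CPM. Smoc2, which encodes a calcium-binding matrix protein that modulates growth factor signals, stood at 312 CPM (288 to 337) in Flox and 430 (397 to 466) in KO, against 29.1 and 17.3 CPM in Dpp4/Pi16 nuclei. Both genes were thus many times more abundant in the chosen nuclei in each library. Bmper, a secreted BMP-binding protein, was among the most frequent markers at 1162 CPM in Flox and 1124 in KO. Abca8a, a lipid transporter gene, stood at 2711 and 3121 CPM. Apod, which encodes the lipid carrier apolipoprotein D, stood at 1214 and 1103 CPM and was the least selective of the 9, with 756 and 517 CPM in Dpp4/Pi16 nuclei. Ggt5, which encodes an enzyme that cleaves glutathione conjugates, stood at 395 and 383 CPM. Col15a1, a collagen of the basement membrane zone, stood at 180 CPM in Flox and at 145 CPM in KO and at 5.94 and 6.91 CPM in Dpp4/Pi16 nuclei. Bicc1, an RNA-binding protein gene that the rule did not use, differed far less between the kinds of fibroblast, with 1508 and 1483 CPM here and 1191 and 1111 CPM in Dpp4/Pi16 nuclei.

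**Figure D1:**
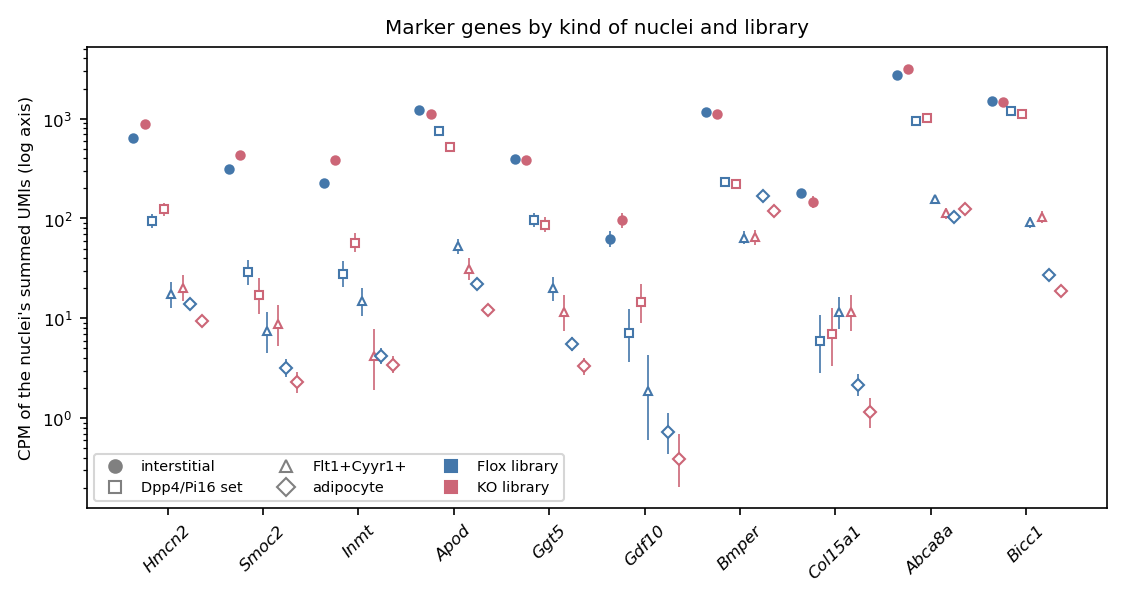
Level of the 9 marker genes and of Bicc1 in 4 kinds of nuclei (CPM, log axis, 1 point per library with its 95% Poisson interval for counting error, points with no UMI not drawn). Hmcn2 and Smoc2 lie far above the other kinds of nuclei in both libraries, whereas Apod and Bicc1 are also high in Dpp4/Pi16 nuclei.

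Nuclei just inside the threshold still looked like fibroblasts, and those just outside did so less often. Among nuclei with exactly 3 marker genes, 343 in Flox and 185 in KO, Dcn stood at 3481 and 3453 CPM and was detected in 88.6% and 83.2%. Among nuclei that met the other conditions with only 2 marker genes, 480 in Flox and 261 in KO, Dcn stood at 743 and 512 CPM and was detected in 43.1% and 32.6%. The most marker genes seen in a nucleus were 8 in Flox and 9 in KO. None of the opposed genes was detected in 373 Flox and 250 KO interstitial nuclei.

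At matched depth 7 of the 9 markers were each seen in a minority of the nuclei. Abca8a was detected in 85.2% of Flox and 85.3% of KO interstitial nuclei, and Bmper in 52.8% and 50.1%. Nuclei were thinned to 1000 UMIs for this, which left out 166 shallower nuclei in Flox and 88 in KO. Hmcn2 was then detected in 38.5% of Flox and 44.0% of KO interstitial nuclei, against 51.6% and 59.2% without thinning. Endothelial nuclei, defined by Flt1 and Cyyr1 and with median depths of 1645.5 and 1949.5 UMIs, give the background of free RNA, and there Hmcn2 was detected in 0.858% and 1.29%. Smoc2 was detected in 25.3% and 30.3% of thinned interstitial nuclei and Inmt in 19.7% and 27.0%, and both were below 1% in endothelial nuclei of each library. Gdf10, a BMP-family ligand, was detected in 5.83% and 7.88% of thinned interstitial nuclei and in 0% of thinned endothelial nuclei of both libraries.

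Inmt and Gdf10 tended to be found in the same nuclei. Both were detected in 45 Flox nuclei (4.80%) and 49 KO nuclei (7.44%), where independent detection at their own frequencies would give 2.78% and 4.73%. Gdf10 and Bmper behaved in the opposite way, with both detected in 2.77% of Flox and 3.34% of KO nuclei against 5.90% and 7.36% if independent. Bmper and Col15a1 were detected together in 16.1% and 15.9% of nuclei against 12.3% and 13.9% if independent. Since nuclei were admitted by the number of these genes they held, these shares describe the chosen nuclei only.

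Inmt, which encodes an indole N-methyltransferase, lies on chromosome 6 at 55170626 to 55175043 (minus strand), and Gdf10 on chromosome 14 at 33923587 to 33937983 (plus strand), in GENCODE vM21 on mm10. Their promoters are shown because the 2 genes were found together more often than independent detection gives and both were high in group 4 of the groups described below. The stretches upstream of the RefSeq starts on GRCm38.p6, chr6:55175051-55175240 on the minus strand and chr14:33923337-33923586 on the plus strand, read as follows, with TATAAA (Inmt) and GGGCGG on either strand (Gdf10) in capitals.
Inmt: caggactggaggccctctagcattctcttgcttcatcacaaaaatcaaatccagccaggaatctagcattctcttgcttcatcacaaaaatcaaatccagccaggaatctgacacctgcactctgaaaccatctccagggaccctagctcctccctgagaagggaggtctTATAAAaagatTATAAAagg
Gdf10: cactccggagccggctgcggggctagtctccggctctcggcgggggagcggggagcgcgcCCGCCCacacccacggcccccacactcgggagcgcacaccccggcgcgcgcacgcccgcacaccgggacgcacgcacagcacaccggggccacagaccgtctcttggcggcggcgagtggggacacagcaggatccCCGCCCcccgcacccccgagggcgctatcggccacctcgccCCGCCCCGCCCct
The Inmt stretch was cut to the first 190 of the 250 bases before the RefSeq start, so it stops short of that start. It ends just upstream of the GENCODE start at 55175043. It holds 2 TATAAA matches near its downstream end. A directly repeated run of 46 bases begins at base 19 and again at base 65 of the printed stretch. The Gdf10 stretch holds 4 GGGCGG matches.

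The short words searched were not shared by all marker promoters. RefSeq windows of 300 bases (250 before and 50 after the start) were found for 7 of the 9 marker genes, not for Smoc2 and Ggt5. TATAAA, searched on both strands as were the other words, was in 1 of the 7 and in 13.6% of all 32851 promoter windows. CANNTG was in 5 of the 7 and in 72.3% of all windows, and GGGCGG was in 2 of the 7 and in 35.7%. A match is a stretch of letters and not a measured binding site.

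Genes beyond those of the rule also differed between interstitial and Dpp4/Pi16 nuclei. The rule set these nuclei apart, so the differences are described without a test. Among the 7885 genes that reached 50 UMIs, 228 stood 2-fold or more above Dpp4/Pi16 nuclei in each library (2.89%) and 270 stood 2-fold or more below (3.42%). Among genes outside the rule with 50 CPM or more in the higher kind of nuclei, 148 were above and 200 below in this way. At 1.5-fold or more in each library, 538 genes were above (6.82%) and 462 below (5.86%). Of the matrix lists, basement membrane genes had 8 of 18 above and 1 below at that size, while microfibril genes had 1 of 19 above and 7 below. Fibrillar collagens had 2 of 10 above and 6 below, proteoglycan genes 3 of 16 above and 7 below, and crosslinking and protease genes 4 of 30 above and 6 below. Guidance and adhesion genes had 11 of 24 above and 6 below.

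The 20 genes furthest above Dpp4/Pi16 nuclei included secreted signals. Ccbe1, whose protein helps activate the lymphatic growth factor VEGF-C, stood at 337 CPM in Flox and at 464 CPM in KO, 19.2-fold and 22.0-fold above Dpp4/Pi16 nuclei of the same library. Bmp5, a BMP ligand, stood at 151 and 189 CPM, 20.4-fold and 15.7-fold above. Ntf3, the neurotrophin NT-3 that supports nerve fibres, stood at 138 and 149 CPM, 18.7-fold and 16.0-fold above. All 3 were thus far lower in Dpp4/Pi16 nuclei of both libraries. Mgp, a matrix protein that binds BMPs and holds back calcification, stood at 211 CPM in Flox and at 355 CPM in KO. Sparcl1, a matrix protein of the SPARC family, stood at 222 and 271 CPM, 8.78-fold and 17.4-fold above.

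Genes of transcription, adhesion and guidance were also among them. Eya2, a transcriptional cofactor gene, stood at 346 CPM in Flox and at 478 CPM in KO. Lsamp, a cell adhesion gene of the immunoglobulin family, stood at 288 and 201 CPM, 12.6-fold and 9.26-fold above Dpp4/Pi16 nuclei. Epha4, an ephrin receptor gene, stood at 68.1 and 84.2 CPM. Dlk1, also known as the preadipocyte factor Pref-1, stood at 92.3 CPM in Flox and at 106 CPM in KO, 5.28-fold and 12.3-fold above. The other 11 of the 20 were Rerg, Adap2, Rap1gap2, Pear1, Irag1, Tspan11, Grb14, Sorcs2, Hmgcll1, Spaar and Myo10.

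The genes furthest below Dpp4/Pi16 nuclei were close to absent here. Mdfic2 had 0 UMIs in interstitial nuclei of both libraries and 58.8 and 58.0 CPM in Dpp4/Pi16 nuclei. Anxa3, an annexin gene, stood at 12.6 CPM in Flox and at 17.4 CPM in KO against 383 and 454 CPM. Aldh1a3, which makes retinoic acid, stood at 4.54 and 4.18 CPM against 115 and 123 CPM. Gpr1, Ano3, Ackr1, E2f7, Bmp3, Efhd1 and Ackr2 completed the 10 lowest. Of the 7 counted genes of a Dpp4/Pi16 marker list without rule genes, 7 were lower in interstitial nuclei, and the list summed to 358 and 370 CPM against 1871 and 2245.

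**Figure D2:**
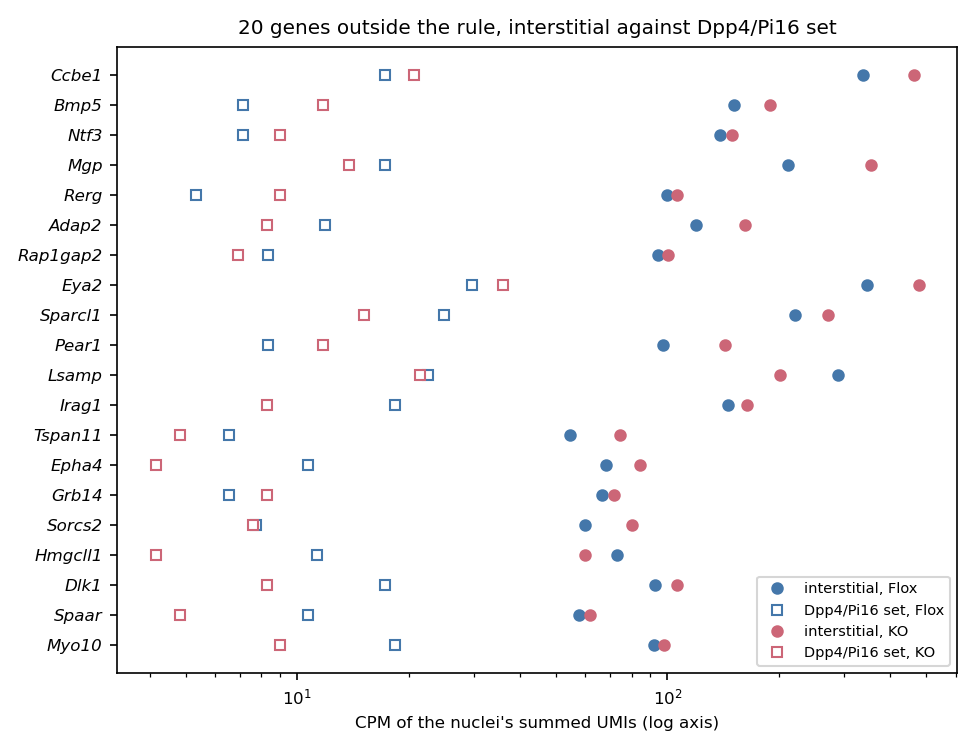
The 20 genes outside the rule that stood furthest above Dpp4/Pi16 nuclei (CPM, log axis, 1 symbol per library, filled circles for interstitial and open squares for Dpp4/Pi16 nuclei, no error shown). Each gene lies above its Dpp4/Pi16 level in both libraries, by 19.2-fold and 22.0-fold for Ccbe1.

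The interstitial nuclei were not uniform. Clustering of their own counts gave 9 groups of 12 to 465 nuclei, which keep numbers because they were defined by the same genes that describe them. The leading genes of some groups also differed between the libraries, so the sizes of groups were not compared between them.

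Group 1 (465 nuclei) was led by Blnk, Adap2 and Irag1 and held the highest Abca8a, with 4579 CPM over both libraries. Group 2 (429 nuclei) was led by Mmp27 and Pcolce2, a gene of procollagen processing, at 306 CPM against 60 CPM in the other groups. It also held the opposed gene Opcml at 715 CPM against 148, and the complement gene C4b at 561 against 152. Group 3 (208 nuclei) was led by Pde11a and Adam12, with Fgf10, which drives preadipocyte growth, at 1206 CPM against 374 and Igf1, insulin-like growth factor 1, at 644 against 203. It also held Rspo3, which strengthens WNT signals, at 114 CPM against 16. Pparg stood at 1382 CPM in group 3, above groups 1, 2, 4, 6 and 7. It was higher in groups 5, 8 and 9, at 4796, 2968 and 2136 CPM.

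In group 4 (196 nuclei) Gdf10 stood at 438 CPM against 34 in the other groups, and Inmt was the highest of the 9 groups at 895 CPM. The complement gene C7, a part of the membrane attack complex, stood at 240 CPM against 19. Group 4 had the ephrin receptor gene Epha3 at 293 CPM against 3, the highest Dcn of the 9 groups at 7967 CPM, and the lowest Bmper at 148 CPM. Group 6 (119 nuclei) was led by Cilp, a cartilage matrix gene, at 708 CPM against 27. Its level of Eln, which encodes elastin, was 1149 CPM against 140, and its Hmcn2 was 2650 CPM against 639.

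Groups 5, 7, 8 and 9 stood apart from the others. Group 5 (125 nuclei) had 9615 CPM of adipocyte markers and a median of 4260 UMIs, and Scrublet, a doublet caller, marked 64% of it. Group 8 (20 nuclei) had 4581 CPM of pericyte and smooth muscle markers, and group 9 (12 nuclei) had 26176 CPM of Schwann cell markers. Group 7 (23 nuclei) was led by Tenm2 and Itgb4, with Apod at 9137 CPM. These 4 groups were kept in the main values because the rule admits them. Leaving them out left 818 Flox and 599 KO nuclei, and the counts of genes and the medians of the main lists are also given for these.

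Interstitial nuclei made up 5.85% (5.49 to 6.22) of nuclei in Flox, 938 of 16046, and 5.11% (4.73 to 5.50) in KO, 659 of 12907. The ratio of these shares was 0.873 (0.793 to 0.962). Shares are parts of a whole, and adipocyte nuclei made up 49.5% and 62.2%, a ratio of 1.26. The ratio of endothelial nuclei was 0.863. The ratio of Dpp4/Pi16 nuclei was 1.01 (0.912 to 1.12). Among interstitial and Dpp4/Pi16 nuclei alone, the interstitial share was 54.3% (52.0 to 56.7) in Flox and 50.7% (48.0 to 53.5) in KO. When at least 4 marker genes were asked for, the ratio of shares was 0.990. With every nucleus thinned to 1000 UMIs before the rule was applied it was 0.930. Fewer cells and fewer nuclei recovered cannot be told apart.

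Between the libraries the interstitial nuclei differed in few genes. Of 8552 genes that reached 50 UMIs in the 2 libraries together, 59 were higher in KO by 2-fold or more (0.69%), 13 of them mitochondrial, and 79 were lower by 2-fold or more (0.924%). The interval lay wholly beyond 2-fold for 15 and 8 of these genes. Of the genes chosen for naming below by their interval, only Zfp949 (higher) and Clstn2 (lower) were among them. The others fell outside the limits set for that choice, which leave out mitochondrial genes and genes of low count, among others. Without groups 5, 7, 8 and 9, 56 of 7719 genes were higher (0.725%) and 48 were lower (0.622%). The median log2 ratio (KO over Flox, with 0.5 UMI added) of all genes was -0.01, and without the 4 groups it was -0.01. Of all counted genes, 47.9% had a log2 ratio above 0, the share to set beside the counts above 0 of the lists below. At 1.5-fold or more, which is the size used for gene lists, 316 genes were higher (3.7%) and 410 lower (4.79%).

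Zfp949, a zinc finger gene on chromosome 9 (88548020 to 88571061), was the gene furthest higher in KO by the naming rule. It stood at 42.4 CPM in Flox and 173 CPM in KO, a log2 ratio of 2.02 (1.66 to 2.40), with UMIs in 75 Flox and 186 KO nuclei. The ratio was 2.17 in Dpp4/Pi16 nuclei and 1.37 in adipocyte nuclei. In groups 1 to 6 it was positive throughout, from 0.94 in group 5 to 2.92 in group 6. Zfp949 was therefore higher in KO in these 3 kinds of nuclei.

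Secreted regulators of growth and calcification were also among the genes higher in KO. Igfbp3, which binds insulin-like growth factors (chromosome 11, 7206086 to 7213923), stood at 1196 CPM in Flox and at 1869 CPM in KO. Its log2 ratio was 0.64 (0.56 to 0.72), with 0.40 in Dpp4/Pi16 nuclei. The groups with most nuclei were all higher in KO (0.44 in group 1, 0.49 in group 2, 0.86 in group 3 and 1.11 in group 4), and group 6 had -0.04. Mgp had a log2 ratio of 0.75 (0.56 to 0.94) and -0.31 in Dpp4/Pi16 nuclei. Group 1 alone had 47 Mgp UMIs in Flox and 153 in KO. Adm, which encodes the vessel-relaxing peptide adrenomedullin, stood at 26.7 and 69.6 CPM, a log2 ratio of 1.37 (0.89 to 1.89). Tgfb3, a TGF-beta ligand, stood at 21.2 CPM in Flox and at 48.7 CPM in KO.

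Cytoskeletal, immune and kinase genes completed those higher in KO. Actb, beta-actin, stood at 78.7 CPM in Flox and at 183 CPM in KO, a log2 ratio of 1.22 (0.93 to 1.51), and it was higher in each of groups 1 to 6. Ifitm3, an interferon-inducible antiviral gene, stood at 72.7 and 152 CPM and was positive in groups 1 to 5 but -0.36 in group 6. C7 stood at 25.7 CPM in Flox and at 64.7 CPM in KO, but its UMIs came from only 16 and 19 nuclei. Group 2 supplied 1 C7 UMI in Flox and 47 in KO, while group 4 supplied 40 and 46. Pkdcc, a secreted kinase gene, Ccnc, the gene of cyclin C, Phlda1 and Pcdh11x, a protocadherin gene on the X chromosome, had log2 ratios of 1.17, 1.04, 1.04 and 0.98. Without groups 5, 7, 8 and 9 the ratios of these 12 genes ran from 0.60 for Igfbp3 to 2.16 for Zfp949.

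Genes lower in KO held a WNT potentiator and a brake on growth hormone signals. Rspo3 (chromosome 10, 29452416 to 29535867) stood at 39.4 CPM in Flox and at 15.3 CPM in KO, a log2 ratio of -1.34 (-2.12 to -0.66), whereas Dpp4/Pi16 nuclei had 133 and 135 CPM. Rspo3 and Pde11a, a phosphodiesterase gene at 96.4 and 45.9 CPM, were leading genes of group 3. This group had 143 Flox and 65 KO nuclei, 15.2% and 9.86% of the interstitial nuclei. These sizes are a description only, since the group was defined by such genes. Within group 3 Rspo3 had 45 and 7 UMIs, 140 and 52.4 CPM, and Pde11a 345 and 269 CPM. Whether fewer such cells or less RNA per cell sets the levels over all interstitial nuclei cannot be told apart. Socs2, which holds back growth hormone signalling, stood at 67.1 CPM in Flox and at 27.1 CPM in KO, with UMIs in 107 and 32 nuclei. Its log2 ratio was -1.29 over all interstitial nuclei, from -2.11 in group 2 to 0.69 in group 4, where it rests on 4 and 7 UMIs.

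The other genes lower in KO were of mixed function. Ttyh2, a chloride channel gene, stood at 85.8 CPM in Flox and at 33.4 CPM in KO, with UMIs in 116 and 43 nuclei. Clstn2, a calsyntenin gene, stood at 42.9 and 10.4 CPM, a log2 ratio of -2.00, and at -3.46 without the 4 groups. Postn, which encodes the matrix protein periostin, stood at 100.4 and 55.7 CPM. Ccser1, Sntg1, Xrcc4, a gene of DNA break repair, and Thoc1, a gene of mRNA export, had log2 ratios of -0.86, -0.70, -0.73 and -0.71. Lhfpl2 and Basp1 had -1.04 and -1.02. Without the 4 groups the ratios of these 12 genes ran from -0.58 for Xrcc4 to the -3.46 of Clstn2.

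**Figure D3:**
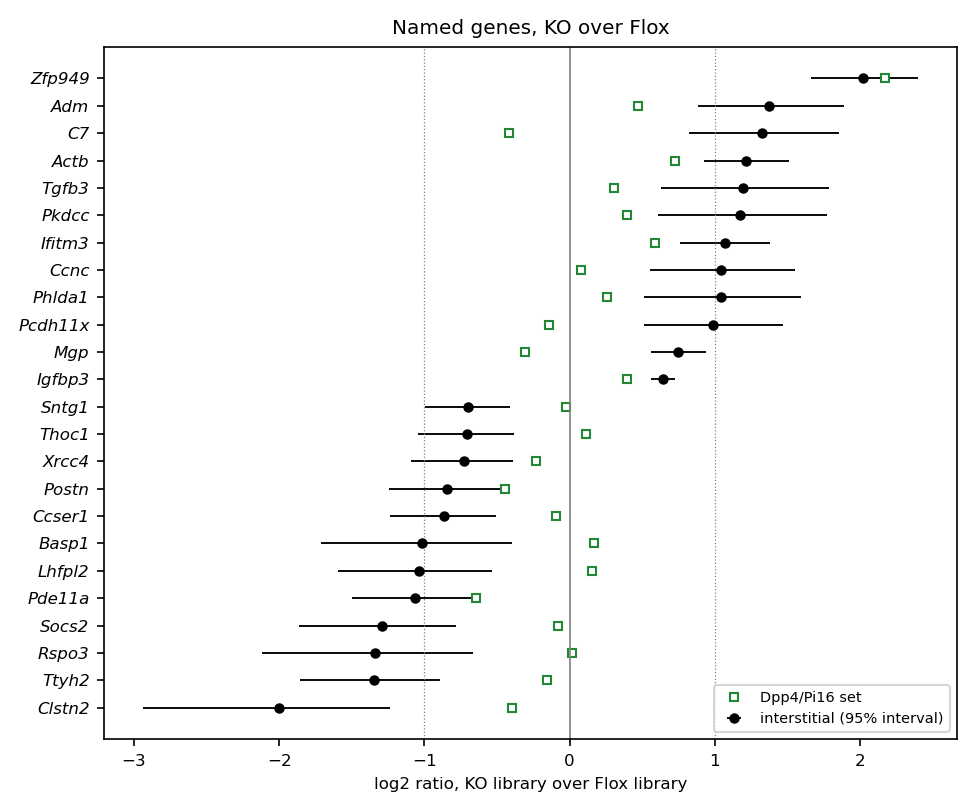
Log2 ratio of KO over Flox for the 24 genes named by rule in interstitial nuclei (dots with 95% intervals for counting error) and in Dpp4/Pi16 nuclei (green squares). Zfp949 and Actb are higher in KO in both kinds of nuclei, whereas C7 and Mgp are higher here and at -0.42 and -0.31 in Dpp4/Pi16 nuclei, where Rspo3 is at 0.02.

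The genes that chose these nuclei are given for both libraries as a description only, since a nucleus entered by holding them. Inmt stood at 229 CPM (208 to 251) in Flox and 383 (352 to 416) in KO, a ratio of 1.67 (1.48 to 1.90), and at 27.9 and 57.3 CPM in Dpp4/Pi16 nuclei. The ratio was 1.54 (1.20 to 1.97) for Gdf10, 1.38 (1.23 to 1.54) for Smoc2 and 1.36 (1.26 to 1.47) for Hmcn2. It was 1.15 (1.11 to 1.20) for Abca8a, 0.970 for Ggt5, 0.967 for Bmper, 0.909 (0.852 to 0.968) for Apod and 0.810 (0.679 to 0.963) for Col15a1. Within groups 1 to 6, the log2 ratio of Inmt ranged from -0.50 in group 5 to 1.16 in group 3 and that of Hmcn2 from -0.46 in group 5 to 0.98 in group 1.

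Pparg was the most abundant gene of the adipogenic list with a difference of 1.5-fold or more. It stood at 1949 CPM in Flox and at 1077 CPM in KO, a log2 ratio of -0.86 (-0.94 to -0.77), and the ratio was -0.87 without groups 5, 7, 8 and 9. Dpp4/Pi16 nuclei had -0.83 and adipocyte nuclei -0.30. In groups 1 to 6 every ratio was below 0, from -0.50 in group 5 to -1.19 in group 4. The C/EBP factors that act with Pparg in fat cell formation lay on the other side, with Cebpa at 22.2 and 39.7 CPM, Cebpb at 31.3 and 55.7 CPM and Cebpd at 81.7 and 139 CPM.

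The adipogenic list as a whole showed no shift. It had 24 counted genes of 29, a median log2 ratio of 0.01 against -0.01 for all genes, 12 genes above 0, and 4 genes 1.5-fold higher and 2 lower. Prdm16, a determinant of brown fat identity, stood at 182 CPM in Flox and at 106 CPM in KO, a log2 ratio of -0.78. Group 5 held 208 of its 360 UMIs in Flox, and without the 4 groups the ratio was -0.27. Klf5 had 1.06, and 0.01 without the 4 groups. Adipocyte markers summed to 3458 CPM in Flox and 3055 in KO, and to 1944 and 1789 without the 4 groups. The part of adipocyte RNA in these values was not tested.

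**Figure D4:**
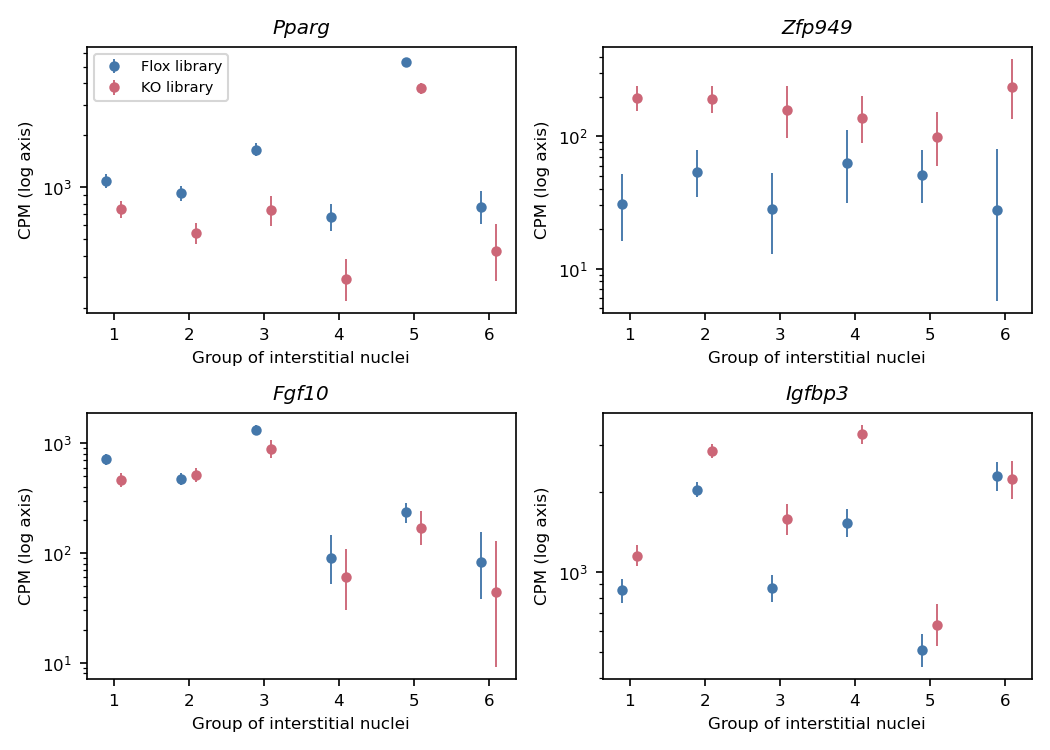
Level of Pparg, Zfp949, Fgf10 and Igfbp3 in groups 1 to 6 of the interstitial nuclei (CPM, log axis, Flox and KO libraries with 95% Poisson intervals for counting error). Pparg is lower and Zfp949 higher in KO in each group, while Fgf10 is 0.13 higher on the log2 scale in group 2 and Igfbp3 is level in group 6.

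Growth factors that stromal cells secrete were mostly lower in KO. Of 18 counted genes of 29, 5 were above 0 and the median log2 ratio was -0.31, with 0 genes 1.5-fold higher and 4 lower. Without the 4 groups the median was -0.19, with nuclei thinned to 1000 UMIs it was -0.05 over the 12 genes still counted, and in Dpp4/Pi16 nuclei it was -0.21. Fgf10 stood at 552 CPM in Flox and at 392 CPM in KO, a log2 ratio of -0.49 (-0.64 to -0.35), with -0.39 in Dpp4/Pi16 nuclei. Within the groups it was below 0 in 5 of 6, with 0.13 in group 2. Igf1 stood at 297 and 212 CPM (-0.48), and was below 0 in each of groups 1 to 6. Fgf7, keratinocyte growth factor, stood at 180 and 120 CPM, Angpt1, a vessel-stabilising ligand, at 436 and 329 CPM, and Vegfa, the main vessel growth factor, at 505 and 407 CPM. The remaining genes at 1.5-fold or lower, Fgf18 (-0.99), Il34 (-0.94) and Mdk (-0.60), had at most 26.7 CPM.

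Receptors and IGF binding proteins went in both directions. The median over 19 counted genes was -0.12, with 2 genes 1.5-fold higher, Igfbp3 and Igfbp6, and 0 lower. Igfbp6 stood at 134 CPM in Flox and at 210 CPM in KO. Ghr, the growth hormone receptor, stood at 1921 and 1513 CPM (-0.34), and Egfr, the receptor for epidermal growth factor, at 1306 and 1712 CPM (0.39).

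Genes of the fibrous matrix lay mostly on the higher side in KO, by small amounts. Fibrillar and associated collagens had 9 counted genes of 12, 8 of them above 0, a median log2 ratio of 0.19 and 0 genes at 1.5-fold either way. The median was 0.13 without the 4 groups and 0.19 in Dpp4/Pi16 nuclei. Col1a1 stood at 639 CPM in Flox and at 917 CPM in KO, a log2 ratio of 0.52 (0.41 to 0.63), and Col5a3 at 248 and 354 CPM. Col3a1, the most abundant of the list, stood at 1085 and 1108 CPM. These collagens were lower than in Dpp4/Pi16 nuclei in both libraries, with a median log2 difference of -0.78 in Flox and -0.76 in KO.

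Microfibril and elastic fibre genes had the largest median of the matrix lists. Of 21 counted genes of 25, 17 were above 0, against 47.9% of all counted genes. The median was 0.35, and it was 0.31 without the 4 groups and 0.20 in Dpp4/Pi16 nuclei. Ltbp4, which ties latent TGF-beta to elastic fibres, stood at 44.9 CPM in Flox and at 83.5 CPM in KO, and was the 1 gene at 1.5-fold higher. Eln stood at 166 and 229 CPM, and the fibulin genes Fbln1, Fbln2 and Fbln5 at 151 and 207, 274 and 392, and 76.2 and 113 CPM. Ltbp2 was the 1 gene at 1.5-fold lower, at 28.8 and 13.2 CPM, and its log2 ratio of -1.10 was -0.22 without the 4 groups.

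The other matrix lists had smaller medians than the microfibril list, also above that of all genes (-0.01). Collagen VI and other network collagens had a median of 0.19 with 5 of 6 above 0, and of 0.05 with 3 of 6 above 0 without the 4 groups. Basement membrane genes had a median of 0.15 with 16 of 19 above 0 (0.08 without the 4 groups), with Col18a1 (0.88) higher and Smoc1 (-0.61), a relative of Smoc2, lower by 1.5-fold.  Proteoglycan and hyaluronan genes had a median of 0.17, and 0.03 without the 4 groups. Prelp, a collagen-binding leucine-rich proteoglycan gene, stood at 55.5 CPM in Flox and at 96.8 CPM in KO, and Ogn, of the same family, at 99.9 and 151 CPM. Crosslinking and protease genes had a median of 0.09, and 0.02 without the 4 groups, and Lox, which crosslinks collagen and elastin, stood at 46.4 and 78.0 CPM.

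TGF-beta and BMP genes were counted in small numbers. The ligand list had 7 counted genes of 16 with a median of 0.32, and Tgfb3 (1.19), Bmp4 (0.81) and Tgfb1 (0.62) were 1.5-fold higher. It includes the protease gene Bmp1 (-0.01), which is also on the crosslinking and protease list. Without the 4 groups the median was 0.21 and 1 of 6 counted genes was 1.5-fold higher. Tgfb3 was then at 1.07, Bmp4 at 0.51 and Tgfb1 at 0.20. Antagonists had 10 counted genes with a median of 0.34, and Htra3, a secreted protease, stood at 660 CPM in Flox and at 872 CPM in KO. Nbl1 (0.67) and Chrd (0.92), which bind BMPs, were 1.5-fold higher. Targets had 4 counted genes of 13 with a median of 0.52. Tgfbi, a matrix gene that TGF-beta induces, stood at 103 and 173 CPM, and Skil, a feedback inhibitor gene, at 27.8 and 54.3 CPM. Smad7, an inhibitory SMAD gene, stood at 47.4 and 71.0 CPM. Receptors had a median of 0.04, with 0 of 12 at 1.5-fold either way. In Dpp4/Pi16 nuclei the log2 ratios of Tgfb3, Tgfbi and Skil were 0.30, -0.16 and 0.11.

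WNT genes gave no common direction. Ligands and modulators had a median of 0.22 over 8 counted genes, with Wnt9a (0.70) higher and Rspo3 lower by 1.5-fold. Receptors and targets had a median of 0.01 over 13, with Fzd7 (1.16), a frizzled receptor gene at 9.59 and 21.6 CPM, higher.

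Genes for lipid and steroid handling lay mostly on the higher side in KO. Retinoid, steroid and lipid handling genes had a median of 0.19, with 22 of 29 above 0. Fmo2, a monooxygenase gene, stood at 382 CPM in Flox and at 579 CPM in KO, and Hsd11b1, which regenerates active glucocorticoid, at 122 and 184 CPM. Cyp4b1 was 1.5-fold lower (-0.68), and -0.10 without the 4 groups. Complement, chemokine and cytokine genes had a median of 0.20, with Ackr3 higher and Serpina3n and Cd55 lower by 1.5-fold. C3, the central complement protein, stood at 293 and 437 CPM, and Cxcl12, a chemokine that holds leukocytes in tissues, at 145 and 207 CPM. Interferon response genes had a median of 0.07 with 8 of 14 above 0, and Irf9, Oas2 and Ifi27l2a were 1.5-fold higher. Without the 4 groups their median was 0.26 with 13 of 14 above 0, and 1 gene was 1.5-fold higher.

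Guidance and adhesion genes had a median of -0.06 over 24 counted genes. Negr1, a neuronal growth regulator of the same family as Lsamp, stood at 354 CPM in Flox and at 183 CPM in KO, a log2 ratio of -0.95 (-1.16 to -0.75), against 0.04 in Dpp4/Pi16 nuclei. It was below 0 in groups 1, 2, 3, 5 and 6 and 0.04 in group 4. Ncam1 (-0.65) was also 1.5-fold lower, and Epha3, a leading gene of group 4, was 1.5-fold higher at 23.2 and 47.3 CPM. Lsamp stood at -0.52. Genes of contractile and activated fibroblasts had the lowest median of the lists, -0.35 over 6 counted genes of 17 with 1 above 0, and -0.39 over 4 without the 4 groups. Ltbp2 and Postn were its 2 genes 1.5-fold lower. Ion channel and calcium genes had a median of -0.11, with 0 of 10 at 1.5-fold either way.

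Proteasome genes, which NFE2L1 is known to drive, and the protein folding, antioxidant and respiratory chain lists showed small differences. The 31 counted proteasome subunit genes had a median of -0.18, with 8 above 0, and summed to 1620 CPM in Flox and 1430 in KO. The median was -0.08 without the 4 groups and -0.13 in Dpp4/Pi16 nuclei. Psma1 stood at 51.0 and 32.0 CPM (-0.66), while Psmb4 (0.87) and Psmc5 (0.70) were 1.5-fold higher at no more than 27.8 CPM. Genes of protein folding in the endoplasmic reticulum had a median of 0.14, with 17 of 21 above 0. Atf5, a stress-induced transcription factor gene, stood at 33.3 and 64.7 CPM, Xbp1, a regulator of the unfolded protein response, at 64.6 and 94.7 CPM, and Herpud1, which serves protein degradation there, at 92.9 and 124 CPM. Antioxidant genes and related factors had a median of -0.07, and Gclc, the rate-limiting enzyme of glutathione synthesis, stood at 74.2 and 47.3 CPM (-0.64). Respiratory chain genes had a median of -0.09 over 29.

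Immediate early genes, which respond fast to many stimuli, had a median of 0.54 over 7 counted genes. Zfp36, Egr1 and Junb were 1.5-fold higher in KO, with log2 ratios of 1.06, 0.88 and 0.64. The median in Dpp4/Pi16 nuclei was 0.45.

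**Figure D5:**
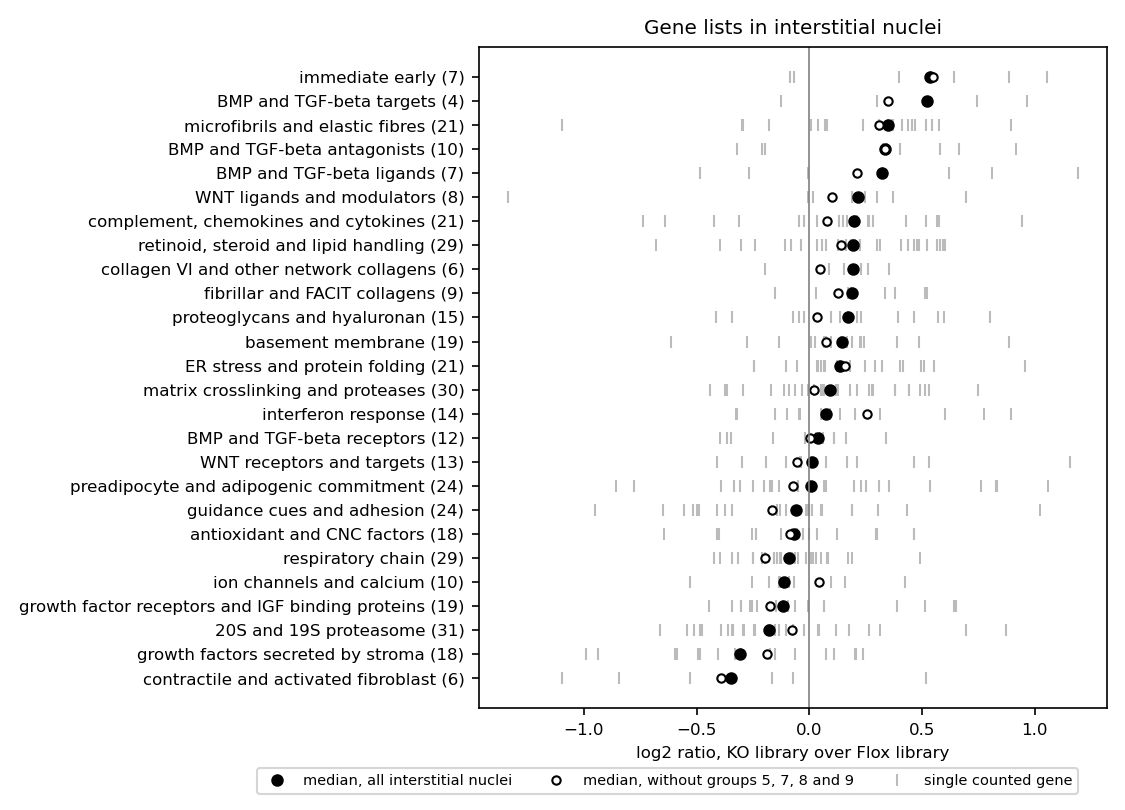
Median log2 ratio of KO over Flox for each gene list (black dots, number of counted genes in brackets), the same without groups 5, 7, 8 and 9 (open dots) and each counted gene (grey ticks). Medians run from -0.35 for the contractile list to 0.54 for the immediate early list, with the adipogenic list at 0.01.

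Markers of other cells were present too, and the larger sums were lower in KO. Endothelial markers summed to 634 CPM in Flox and 592 in KO, macrophage markers to 184 and 175, pericyte and smooth muscle markers to 486 and 409, and Schwann cell markers to 1008 and 920. All other nuclei of the libraries had less of the Schwann cell markers (266 and 240 CPM) and of the pericyte and smooth muscle markers (237 and 178). They had more of the endothelial (876 and 770 CPM) and macrophage markers (555 and 510). Skeletal muscle markers summed to 236 CPM in Flox and 93.3 in KO, with all 5 counted genes lower, and to 291 and 89.8 CPM in Dpp4/Pi16 nuclei. The part of RNA of these other cells in the results was not tested. Lymphatic, mesothelial and tenocyte markers summed to at most 39.0 CPM in either library, with Upk3b, Wt1, Krt19, Upk1b, Scx and Kera at 0 UMIs. T, NK and B cell markers summed to 3.53 and 26.5 CPM, with Cd3g and Ms4a1 at 0. The small lymphatic, mesothelial and tenocyte sums were also higher in KO. Ptprc, the pan-leukocyte gene, had 10 UMIs in Flox and 45 in KO, of which 39 were in group 5.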

How the data were processed

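Nuclei of 1 Flox and 1 KO library were analysed from UMI counts per gene and barcode as the authors deposited them, which come from Cell Ranger 5.0.0 (per the file headers) with mm10 as the genome build (per the submitters' processing notes). The sources used here do not say which annotation was used, how nuclei were called, or whether intron reads were counted, which would raise the counts of long genes. A matrix has 22620 genes, and no barcode has fewer than 500 UMIs. Positions of genes were taken by ID from GENCODE vM21.

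UMIs were summed over the chosen nuclei of each library and divided by their total (CPM). Ratios of KO over Flox used genes with at least 50 UMIs in interstitial nuclei over both libraries. Ratios to Dpp4/Pi16 nuclei used genes with at least 50 UMIs in both kinds of nuclei together in each library. On the log2 scale 0.5 UMI was added. Ratios of KO over Flox in Dpp4/Pi16 nuclei, in adipocyte nuclei and in single groups had no minimum of their own. The same holds for single genes without the 4 groups, so some of these ratios rest on few UMIs. Intervals were exact Poisson for CPM, exact binomial for ratios and Clopper-Pearson for shares. Genes were named by rule: the 9 marker genes, the 12 genes each way with the ratio interval furthest from 1 (at least 100 UMIs, 20 CPM or more, no lower than in the library's other nuclei, and at most 20% of UMIs in 1 nucleus), the 20 genes furthest above Dpp4/Pi16 nuclei, and the most abundant and most different genes of each list. Mitochondrial, ribosomal and unnamed genes were not named. By its rule the choice of the 12 genes each way also left out haemoglobin and sex-linked genes. Pcdh11x of the X chromosome was nevertheless among those chosen. For 1 gene that leads a group, no value is reported here. The 10 genes furthest below Dpp4/Pi16 nuclei and further list genes, such as Igf1, Fgf7, Col1a1 and Cebpb, were named after their values were seen. The chosen nuclei and the gene lists were picked with earlier results of these data known. Doublets were kept in the main values, and their removal with Scrublet was an alternative. Groups came from Leiden clustering without batch correction.

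Simulated data for KO against Flox in interstitial nuclei, over 8525 genes, were also counted at 2-fold. Of the 188 counted genes simulated as changed by 1.5 or 2 on the log2 scale, 188 passed. These sizes lie well beyond 2-fold and none close to it was simulated, so recovery near the limit was not tested. A changed gene below the minimum of UMIs in the simulated counts was not counted, so recovery of such genes was not tested either. Of 8337 unchanged genes, 3 passed as higher and 8 as lower, which holds for the simulated counts only. Those counts were drawn with counting error alone, without the spread between nuclei or mice. They therefore cannot say how many of the genes counted in the real data would pass without a change. Software was scanpy 1.11.5, pandas 2.3.3, SciPy 1.17.1, NumPy 2.4.6 and Python 3.11.15, with leidenalg 0.10.2, igraph 0.11.9, matplotlib 3.10.9, R 4.3.3 and edgeR 4.0.16 (TMM scaling as an alternative, with no test).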

Additional observations from a re-analysis of the deposited data

Results flagged for a closer look

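In 6 genes the interval of the ratio of KO over Flox lay on opposite sides of equality in interstitial and in Dpp4/Pi16 nuclei. The difference between the 2 kinds of nuclei was not tested, since each value rests on 1 library per genotype. Acvr2a, an activin receptor gene, had a log2 ratio of -0.36 in interstitial and 0.23 in Dpp4/Pi16 nuclei. Fstl1, which encodes a secreted glycoprotein of fibroblasts, had -0.21 and 0.18. Ltbp1, which holds latent TGF-beta in the matrix, had -0.18 and 0.26. Limch1 had -1.10 and 0.22, and it is on the Dpp4/Pi16 marker list. Cadm2, an adhesion gene of Schwann cells and neurons, had -1.02 and 0.99, and 52 of its 98 UMIs in KO interstitial nuclei were in 1 nucleus. Ptprc had 2.58 and -1.54, and 13 of its 45 UMIs in KO interstitial nuclei were in 1 nucleus. Without groups 5, 7, 8 and 9, Ptprc had -0.05 and Cadm2 -2.83 in interstitial nuclei, while Acvr2a, Fstl1, Ltbp1 and Limch1 had -0.45, -0.33, -0.28 and -0.78.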

How the results depend on the processing

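The counts of genes beyond 2-fold moved with the filter on low counts, which sets how many genes are tested. Against 59 higher and 79 lower genes, a minimum of 20 UMIs gave 175 and 234 of 10626 genes, a minimum of 200 UMIs 15 and 7 of 3970, and thinning to 1000 UMIs 36 and 28 of 4595. Adding 5 UMIs in place of 0.5, which draws low counts together, gave 39 lower genes. Leaving out groups 5, 7, 8 and 9, an alternative chosen after seeing the data, gave 48 lower genes. The ratio of the shares of nuclei moved from 0.873 to 0.990 with at least 4 of the 9 marker genes, and the cause was not tested. The rest of the alternatives run kept these 3 results within 1.5 times or within counting error. For single named genes, 1931 of 2053 values stayed inside the gene's own counting interval. A setting gave a value only where the gene still reached the minimum of UMIs. Among these values, 0 of the genes at 1.5-fold or more changed sign. Ptprc fell below the minimum without the 4 groups (8 Flox and 6 KO UMIs), so its -0.05 there is not among them. For list medians, 441 of 445 values stayed inside the median lower and upper bounds of the list's genes, a wide tolerance. The medians outside it were those of BMP and TGF-beta antagonists (-0.20 with at least 200 UMIs), their ligands (-0.08 when thinned), adipocyte markers (0.08 with doublets removed) and proteoglycans (0.03 without the 4 groups). Inside it, thinning took the growth factor median from -0.31 to -0.05 and that of crosslinking genes from 0.09 to -0.09, and the medians near 0 of the adipogenic, WNT receptor and ion channel lists changed sign under several settings. Prdm16 was at -0.08 when thinned. Removing doublets took 83 Flox and 38 KO interstitial nuclei. No paired analysis was possible because there is 1 library per genotype, and for the same reason no library could be left out. Depth limits genes under about 20 CPM, which rest on few UMIs.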
